A study of Mus musculus with 6 samples.

Results

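The 870 regions described here carried both OCT4 and NANOG in mouse ESCs of the Esrrb-GFP high fraction, kept NANOG in the Esrrb-GFP medium fraction, and in Esrrb-GFP negative cells kept OCT4 but not NANOG. They were selected on measured binding calls in 5 of the 6 libraries, as intervals listed for OCT4 in high and negative cells and for NANOG in high and medium cells, and missing from the NANOG list of negative cells. They make up 870 of the 23767 distinct regions of all lists, 870 of the 3675 regions that both factors occupied in high cells, and 870 of the 1565 Class II regions, the elements that lose NANOG but hold OCT4 when ESRRB is gone. The remaining 695 Class II regions had lost NANOG by the medium fraction, so 55.6% of Class II regions kept it, a share that the selection itself fixes. The OCT4 call in medium cells was the only call that the selection left free.

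OCT4 and NANOG ChIP-Seq was done on E-GFPd1 cells, E14Tg2a ESCs in which a 2a peptide links a destabilised GFP to both *Esrrb* alleles (Esrrb-2a-GFPd-IBIH in the labels), so that fluorescence tracks *Esrrb* output. Cells grown in LIF and fetal calf serum were fixed and sorted into a high fraction (the brightest 10% of the distribution), a medium fraction (the 15% next above negative) and a negative fraction. All 6 groups, OCT4 or NANOG in high, medium or negative cells, came from this same line and medium with no other treatment, and each was 1 library made from pooled ChIPs. Without a second library in any group, the spread between cultures or ChIPs is unknown, and the 95% intervals given below (Wilson for shares, Woolf for odds ratios) cover counting error over regions only.

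OCT4 is a POU homeodomain protein that pairs with the HMG-box factor SOX2 on composite DNA elements, and it is required for pluripotency in both naive and more advanced epiblast cells. NANOG is a homeodomain protein and ESRRB an orphan nuclear receptor, and both sustain self-renewal of naive ESCs and decline as cells leave that state. Regions that lose both factors in Esrrb-GFP negative cells are called Class I here, and those that lose only NANOG are called Class II. For the 813 members that also had OCT4 in medium, that fraction was the last one in which both factors were called. For the other 57 it was the high fraction. In all members NANOG was called in medium and not in negative cells, which are sorted fractions rather than time points.

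The sequences below show the Oct-Sox composite (CATTGT or CTTTGT, 1 free base, then the octamer ATGCAAAT, scanned on both strands with up to 2 mismatches). It was more frequent in the members than in Class I regions with NANOG in medium, but was found in only 138 of 870 members. The printed sequences are 5 of the members near named genes whose best match had 2 mismatches, the fewest found there, on the plus strand of mm9, with the match in capitals. A match is a description of letters, not evidence of a site.
Upstream of *Pou5f1*, minus-strand match, chr17:35640952-35641091: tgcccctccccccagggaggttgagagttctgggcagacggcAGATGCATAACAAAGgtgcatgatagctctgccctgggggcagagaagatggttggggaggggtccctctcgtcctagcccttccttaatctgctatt
Upstream of *Lifr*, minus-strand match, chr15:7065712-7065931: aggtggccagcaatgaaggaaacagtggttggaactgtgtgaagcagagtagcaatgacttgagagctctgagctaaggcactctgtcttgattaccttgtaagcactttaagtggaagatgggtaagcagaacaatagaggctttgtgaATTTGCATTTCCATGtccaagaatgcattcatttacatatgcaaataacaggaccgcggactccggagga
Upstream of *Lefty2*, minus-strand match, chr1:182818812-182819111: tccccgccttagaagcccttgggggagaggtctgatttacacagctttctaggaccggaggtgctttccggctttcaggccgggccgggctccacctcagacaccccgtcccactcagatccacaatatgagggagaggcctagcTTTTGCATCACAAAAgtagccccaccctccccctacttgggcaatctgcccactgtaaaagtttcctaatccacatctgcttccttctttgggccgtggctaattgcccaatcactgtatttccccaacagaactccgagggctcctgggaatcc
Downstream of *Tgif1*, minus-strand match, chr17:71177592-71177711: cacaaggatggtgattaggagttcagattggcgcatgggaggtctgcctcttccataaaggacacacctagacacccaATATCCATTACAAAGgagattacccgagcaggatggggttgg
Intron of *Pax3*, plus-strand match, chr1:78116612-78116731: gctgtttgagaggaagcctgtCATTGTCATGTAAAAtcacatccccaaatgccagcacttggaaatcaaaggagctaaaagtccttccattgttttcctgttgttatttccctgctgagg
The one near *Lifr* held an exact octamer within the capitals and another outside them. For comparison, a Class II region near *Sox2* that had lost NANOG by medium held a plus-strand match with 1 mismatch.
Downstream of *Sox2*, NANOG absent in medium, chr3:34552952-34553031: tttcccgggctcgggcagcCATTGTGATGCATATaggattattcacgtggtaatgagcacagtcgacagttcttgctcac

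The Oct-Sox element was found within 100 bp of the centre in 138 of 870 members (15.9%, 13.6 to 18.4%), against 9.48% of all 23767 regions. It was as frequent in Class II regions without NANOG in medium (110 of 695, 15.8%), and the odds ratio was 1.00 (0.763 to 1.32). In Class I regions with NANOG in medium, which share the NANOG calls of the members and differ by the loss of OCT4 in negative cells, it was found in 81 of 1068 (7.58%), an odds ratio of 2.30 (1.72 to 3.07). This difference remained at the Bonferroni level over 24 motif comparisons (1.46 to 3.63). The element thus differed between the classes and showed no detectable difference by the presence of NANOG in medium cells. The study's differential motif search between Class I and Class II did not return the Oct-Sox motif. From this the paper proposes equal presence in both classes. Its method and region sets differed from those used here, and the cause of the disagreement was not tested.

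Better matches followed the same order. The best match had no mismatch in 2 members, 1 mismatch in 26 and 2 mismatches in 110, while in Class I regions with NANOG in medium the counts were 0, 11 and 70. In a window of 250 bp either side, 165 members held a match, its median distance from the region centre was 38.5 bp, and 56.4% lay within 50 bp. In Class I regions with NANOG in medium the 104 best matches lay at a median of 40.5 bp, so the groups differed in how many regions held the element and little in where it sat.

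**Figure D1:**
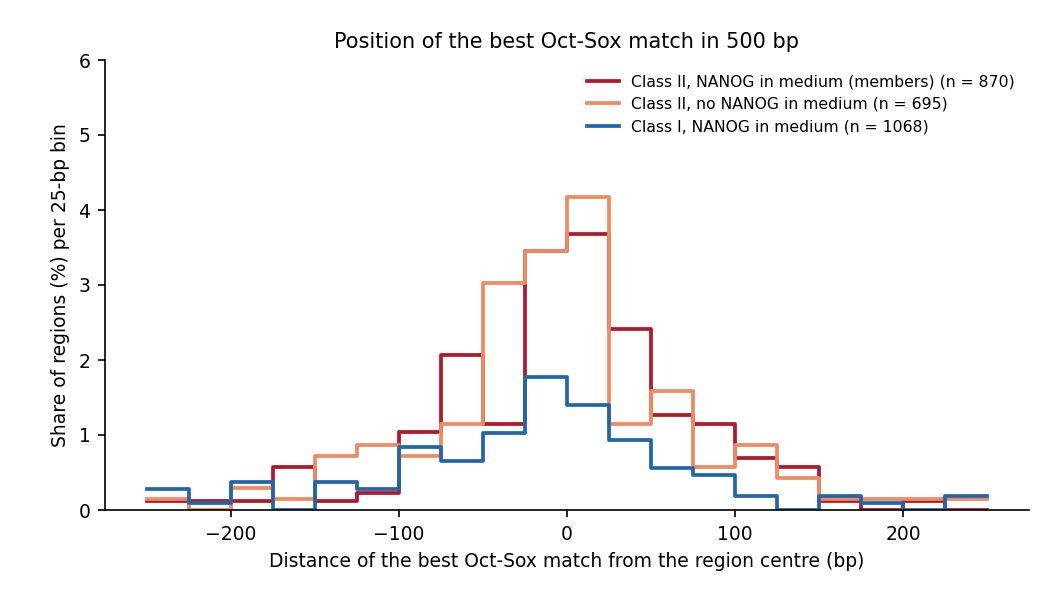
Share of regions (y axis, % per 25-bp bin) by the distance of the best Oct-Sox match from the region centre (x axis, bp), for members, Class II regions without NANOG in medium and Class I regions with NANOG in medium; lines are histograms of regions with up to 2 mismatches. Both Class II lines peak at the centre above the Class I line, with median distances of 38.5 bp, 39.0 bp and 40.5 bp.

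The octamer alone, ATGCAAAT without mismatch, which lies inside the Oct-Sox pattern and is thus not counted independently of it, was found in 80 members (9.20%) and in 7.86% of all regions. Its odds ratio was 0.949 (0.675 to 1.33) over Class II regions without NANOG in medium and 1.36 (0.978 to 1.89) over Class I regions with NANOG in medium. The second value had an interval above 1 in windows of 50 bp and 250 bp, in the deposited interval, with 1 mismatch allowed and without sequence families. One or the other POU element was present in 185 members (21.3%), and in 12.5% of Class I regions with NANOG in medium (odds ratio 1.88, 1.48 to 2.40).

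The ESRRB motif, TCAAGGTCA on either strand with up to 1 mismatch, was less frequent in the members than in Class I regions with NANOG in medium. It was more frequent than in Class II regions without NANOG in medium, but not detectably so outside the sequence families described below (odds ratio 1.04, 0.704 to 1.55). It was found in 120 members (13.8%, 11.7 to 16.2%), in 65 of 695 Class II regions without NANOG in medium (9.35%), in 217 of 1068 Class I regions with NANOG in medium (20.3%) and in 11.2% of all regions. The odds ratio was 1.55 (1.13 to 2.14) over the Class II group, an interval that reached 1 at the Bonferroni level (0.938 to 2.56). It was 0.627 (0.492 to 0.801) over the Class I group, below 1 also at that level (0.428 to 0.920). The motif read backwards without complementing, which keeps its base composition, gave 1.25 (0.797 to 1.96) and 1.22 (0.818 to 1.81). An ESRRB motif without a POU element was found in 100 members, both kinds together in 20, and neither in 585 (67.2%).

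**Figure D2:**
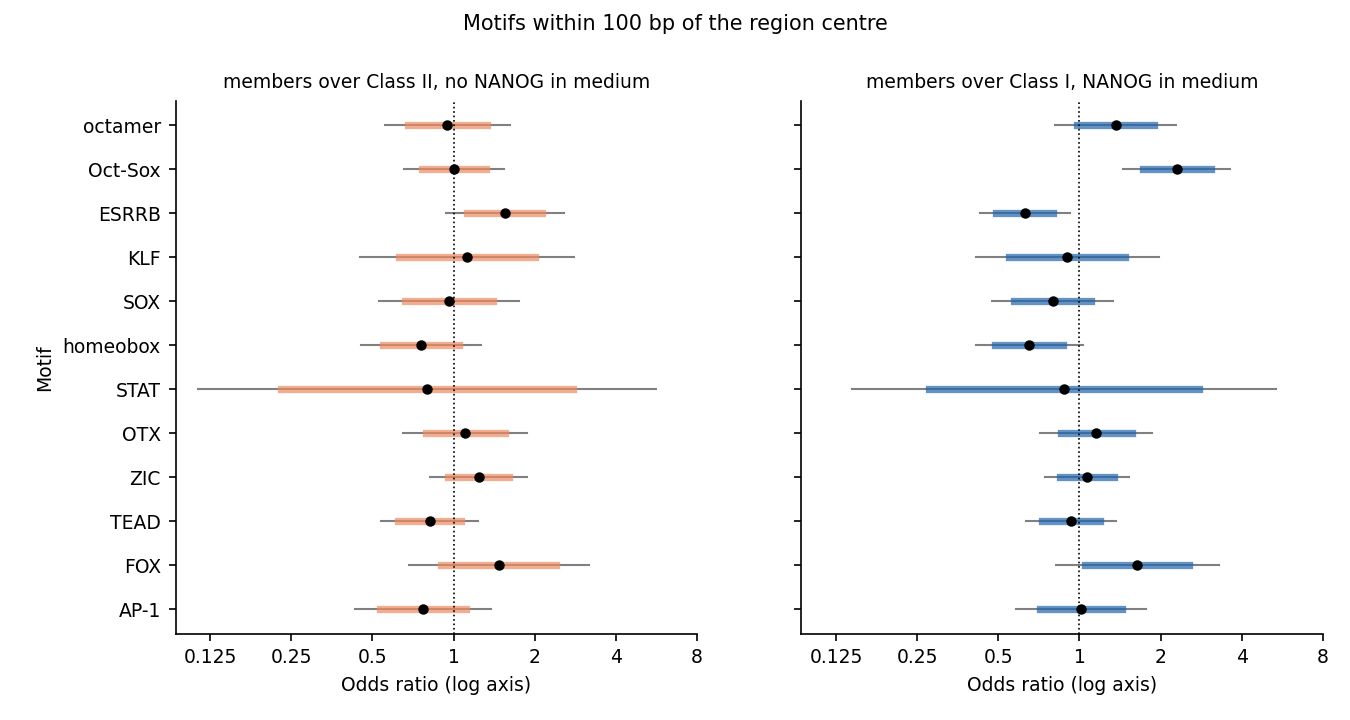
Odds ratios (x axis, log scale) of 12 motifs (y axis) within 100 bp of the centre, members over Class II regions without NANOG in medium (left) and over Class I regions with NANOG in medium (right); dots are odds ratios, thick bars 95% intervals and thin lines Bonferroni-level intervals. Oct-Sox (2.30) and ESRRB (0.627) stand clear of 1 on the right at both levels, and ESRRB (1.55) on the left at the 95% level.

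Like sequences among the regions were looked for after the motif result had been seen. The central 200 bp of all regions were aligned with each other, and regions that matched over at least 100 bp with at least 80% identity were linked into sequence families. Of the members, 206 (23.7%, 21.0 to 26.6%) belonged to such a family, against 23.0% of Class II regions without NANOG in medium, 23.3% of Class I regions with NANOG in medium and 20.7% of all regions. Belonging to any family thus did not separate the members (odds ratios 1.04, 0.819 to 1.31, and 1.02, 0.826 to 1.26). The members fell into 30 of the 229 families, and 165 of them into 5.

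Within Class II, the ESRRB difference was detectable in these families and not outside them. Outside, the motif was found in 62 of 664 members (9.34%) and 48 of 535 Class II regions without NANOG in medium (8.97%), an odds ratio of 1.04 (0.704 to 1.55). In the families it was found in 58 of 206 members (28.2%) and 17 of 160 regions (10.6%), an odds ratio of 3.30 (1.83 to 5.93). The deficit against Class I was the other way round, with an odds ratio of 0.471 (0.343 to 0.646) outside families and 1.00 (0.665 to 1.51) inside. The split was chosen after the motif comparison, the change in odds ratio between the parts was not tested, and like sequences are not independent of one another, so intervals within families are too narrow. Within families other motifs also differed: the octamer was found in 3 of 206 members and 9 of 160 Class II regions without NANOG in medium (odds ratio 0.248, 0.0660 to 0.931), and the TEAD motif GGAATG in 26 members and 35 of these regions (0.516, 0.296 to 0.900) and in 51 of 249 Class I regions with NANOG in medium (0.561, 0.336 to 0.937). The Oct-Sox element was largely outside families, with 126 of its 138 members there, and kept its odds ratio over Class I (2.43, 1.78 to 3.31).

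The largest family held 1210 regions of all lists and 62 members on 17 chromosomes, and 32 of these members (51.6%, 39.4 to 63.6%) carried the ESRRB motif. In the same family the motif was found in 11 of 41 Class II regions without NANOG in medium (26.8%, 15.7 to 41.9%), in 10 of 31 Class I regions with NANOG in medium, and in 19.8% of all its regions. Among the 1891 pairs of members, 825 aligned with each other, at a median identity of 84.2%. In a window of 250 bp either side the motif was found in 38 of the 62 (61.3%, 48.8 to 72.4%) and 18 of the 41 (43.9%, 29.9 to 59.0%), and in both windows these intervals overlapped. No odds ratio was computed for these shares, and overlap of intervals does not by itself mean that the shares were alike. The family as a whole took 7.13% of members, 5.90% of Class II regions without NANOG in medium and 2.90% of Class I regions with NANOG in medium (odds ratio over the last 2.57, 1.65 to 3.99).

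The 3 copies below were chosen after the comparison from the family's 4 members with an exact ESRRB motif in the interval (capitals, TGACCTTGA being the same motif on the other strand). They do not show the inexact matches counted in most of the family's members with the motif. In the members with most aligned partners, 45 and 44, the match was inexact and lay elsewhere along the family's sequence. Sequences are on the plus strand of mm9, and the best alignment of each copy with another member holding an exact motif had 93.3 to 94.5% identity.
Member, chr3:15056932-15057091: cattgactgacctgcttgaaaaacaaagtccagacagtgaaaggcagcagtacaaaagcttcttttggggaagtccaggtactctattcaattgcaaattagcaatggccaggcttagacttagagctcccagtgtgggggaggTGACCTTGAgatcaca
Member, chr6:10041032-10041191: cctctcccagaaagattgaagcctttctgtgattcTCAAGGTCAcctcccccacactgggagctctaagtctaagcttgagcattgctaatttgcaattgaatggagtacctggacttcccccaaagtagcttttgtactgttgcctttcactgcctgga
Member, chr3:83676852-83677091: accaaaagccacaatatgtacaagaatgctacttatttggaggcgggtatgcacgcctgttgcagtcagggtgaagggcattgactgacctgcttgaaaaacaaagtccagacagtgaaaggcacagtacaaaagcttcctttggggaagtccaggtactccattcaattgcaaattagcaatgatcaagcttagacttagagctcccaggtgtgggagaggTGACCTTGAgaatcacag
In the last of them the motif lay more than 100 bp from the centre and so outside the scanned window. A Class II region without NANOG in medium, at most 93.6% identical to the family's members with an exact motif, had 2 mismatches at its best match inside the interval. Its interval ends just where the copies above carry their motif, and its capitals mark another place in the family's sequence. Whether the scanned window, which runs past the interval, held the motif is not given.
NANOG absent in medium, chr6:20637272-20637391: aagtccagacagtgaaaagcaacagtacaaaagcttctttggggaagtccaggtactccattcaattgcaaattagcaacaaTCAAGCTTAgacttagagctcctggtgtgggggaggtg
Another, at most 93.1% identical, held an exact motif near its end, also outside the scanned window.
NANOG absent in medium, chr10:57995012-57995231: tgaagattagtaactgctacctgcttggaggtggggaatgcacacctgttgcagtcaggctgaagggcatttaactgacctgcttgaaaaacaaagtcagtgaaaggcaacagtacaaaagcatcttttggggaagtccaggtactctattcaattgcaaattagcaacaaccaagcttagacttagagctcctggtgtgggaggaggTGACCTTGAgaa
The count of motifs in this family thus depends in part on where the interval lies along the family's sequence.

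The second family held 697 regions and 33 members, and was distributed otherwise. It took 3.79% of members, 7.21% of Class I regions with NANOG in medium (odds ratio 0.507, 0.334 to 0.771) and 1.73% of Class II regions without NANOG in medium (2.24, 1.15 to 4.38). The ESRRB motif was found in 10 of its 33 members (30.3%, 17.4 to 47.3%), 2 of its 12 Class II regions without NANOG in medium, 38 of its 77 Class I regions with NANOG in medium (49.4%, 38.5 to 60.3%) and 39.6% of all its regions. Of its 697 regions, 561 were in the NANOG list of high cells and 232 in that for OCT4, whereas in the largest family 745 of 1210 were in the OCT4 list and 293 in that for NANOG. The fourth family, with 21 members, and the fifth, with 20, were more frequent among members than among Class I regions with NANOG in medium (2.38, 1.14 to 4.96, and 2.49, 1.16 to 5.35). In the third family the forkhead motif TGTTTAC was found in 12 of 29 members (41.4%, 25.5 to 59.3%), 10 of 33 Class II regions without NANOG in medium (30.3%, 17.4 to 47.3%), 5 of 47 Class I regions with NANOG in medium and 128 of all its 550 regions (23.3%), so it was common in the family as a whole. The kinds of repeat were not named, since no repeat annotation was used here, and how well short reads map to such copies was not tested.

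**Figure D3:**
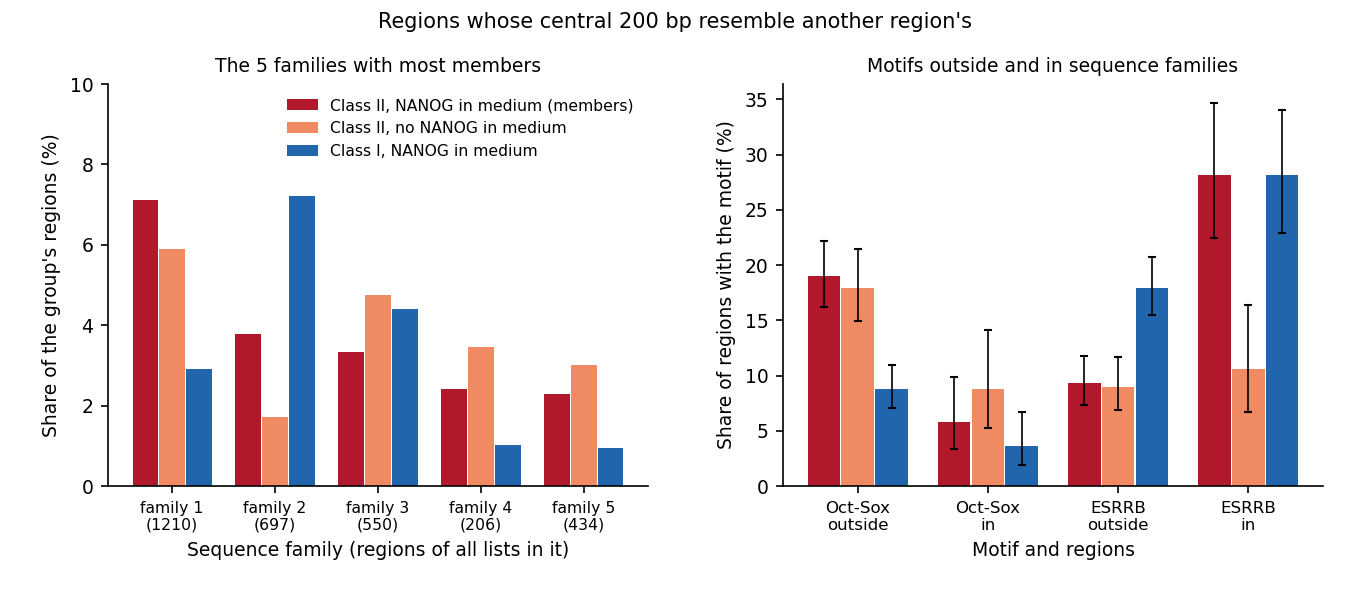
Left, share of each group's regions (y axis, %) in the 5 sequence families with most members (x axis, with the family's regions over all lists in brackets); right, share of regions with the Oct-Sox or ESRRB motif (y axis, %) outside and in families, with 95% Wilson intervals. The ESRRB shares of both Class II groups had overlapping intervals outside families (9.34% and 8.97%) and intervals that did not overlap inside (28.2% and 10.6%).

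Outside families, 12 members held an exact ESRRB motif within the interval, of 19 such members in all. A pair is shown to set sequence outside the families beside the family copies, with the motif in capitals: the first lies in an intron of *Nrip1*, which encodes a nuclear receptor corepressor, and the second near *Efnb2*, which encodes an ephrin ligand. Both were chosen after the motif comparison had been seen.
Intron of *Nrip1*, 1901 bp from the nearest transcription start site, chr16:76321892-76322111: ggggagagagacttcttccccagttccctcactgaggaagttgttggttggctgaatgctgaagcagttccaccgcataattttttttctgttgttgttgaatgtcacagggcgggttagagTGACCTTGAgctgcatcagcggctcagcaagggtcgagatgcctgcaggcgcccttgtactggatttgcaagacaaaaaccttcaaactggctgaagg
Intergenic, within 20 kb of *Efnb2*, chr8:8612052-8612231: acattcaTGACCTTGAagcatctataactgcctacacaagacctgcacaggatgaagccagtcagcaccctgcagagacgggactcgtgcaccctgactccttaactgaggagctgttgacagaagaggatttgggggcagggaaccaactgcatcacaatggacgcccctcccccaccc
Both also held an Oct-Sox match with 2 mismatches within 100 bp of the centre. Most of the 12 had more mismatches at their best match, up to 6, so the pair is not typical in this. Both printed regions were bound by OCT4 in all 3 fractions.

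Other factors' motifs gave small or unstable differences. The homeobox core TAATGG was found in 9.08% of members, 11.7% of Class II regions without NANOG in medium, 13.3% of Class I regions with NANOG in medium and 9.52% of all regions. Its odds ratio over the Class I group was 0.651 (0.487 to 0.871), but its reversed control gave a similar value (0.684) whose interval also lay below 1, and the Bonferroni interval included 1. TGTTTAC, bound by forkhead factors, was found in 5.40% of members and 3.80% of all regions, with odds ratios of 1.47 (0.900 to 2.40) and 1.64 (1.05 to 2.55). The Bonferroni interval again included 1, as did the 95% interval of the second value outside sequence families (1.50, 0.875 to 2.58). The KLF motif, GGGCGTGG or GGGTGTGG, was found in 3.22% of members and 4.17% of all regions, and neither comparison left 1.

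For the remaining 6 motifs, all intervals over both whole groups included 1, while a TEAD difference was detectable within families, as given above. AACAATG of SOX factors was found in 7.36% of members and 6.26% of all regions, TTCCNGGAA of STAT factors in 0.575% and 0.791%, and GGATTA of OTX factors in 10.2% and 7.95%. CCTGCTG of ZIC factors was found in 19.5% of members and 13.7% of all regions, GGAATG of TEAD factors in 15.4% and 15.7%, and TGANTCA of AP-1 in 7.01% and 8.08%. Short motifs occur often, and the shares of all regions give a general level only, since most of these regions were not called for both factors in high cells. The reversed OTX motif was found in 10.2% of members and 7.91% of all regions, much as the motif itself. The ZIC motif was found in 17.7% of all regions that both factors occupied in high cells.

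OCT4 binding in the medium fraction was nearly uniform among the members. It was called in 813 of 870 (93.4%, 91.6 to 94.9%), above the 78.7% of all 12449 OCT4 regions of high cells that were also called in medium. Those regions were not selected on OCT4 in negative cells, as the members were, so this contrast is not independent of the selection. Class II regions without NANOG in medium had the same share, 648 of 695 (93.2%, 91.1 to 94.9%), with an odds ratio of 1.03 (0.694 to 1.54), so no difference in OCT4 calls was detectable between the Class II groups. In Class I the same contrast, regions with over those without NANOG in medium, gave 1.29 (1.05 to 1.59), and both classes together 1.23 (1.03 to 1.48), with a ratio of the odds ratios of 0.800 (0.510 to 1.25). In Class I regions with NANOG in medium OCT4 was called in 842 of 1068 (78.8%, 76.3 to 81.2%). The odds ratio over these was 3.83 (2.82 to 5.20), but both groups were chosen on the OCT4 call in negative cells and calls of one factor share a single reference signal, so this value is not independent of the selection. Among OCT4 regions of high cells that had no NANOG call there and kept OCT4 in negative cells, 4201 of 5212 (80.6%) were called in medium.

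The 57 members without OCT4 in medium had the call in high and in negative cells but not between them. Their median width was 140 bp against 180 bp in the other members. A POU element was found in 10 of the 57 (17.5%, 9.82 to 29.4%) and in 175 of the other 813 (21.5%), and an ESRRB motif in 5 (8.77%) and 115 (14.1%), so that at this number no difference was detectable. Examples lay in introns of *Mapkap1* and *Foxp4*. No signal values were analysed, so how close these or other members stood to the 50% limit that defined a lost region is not given.

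**Figure D4:**
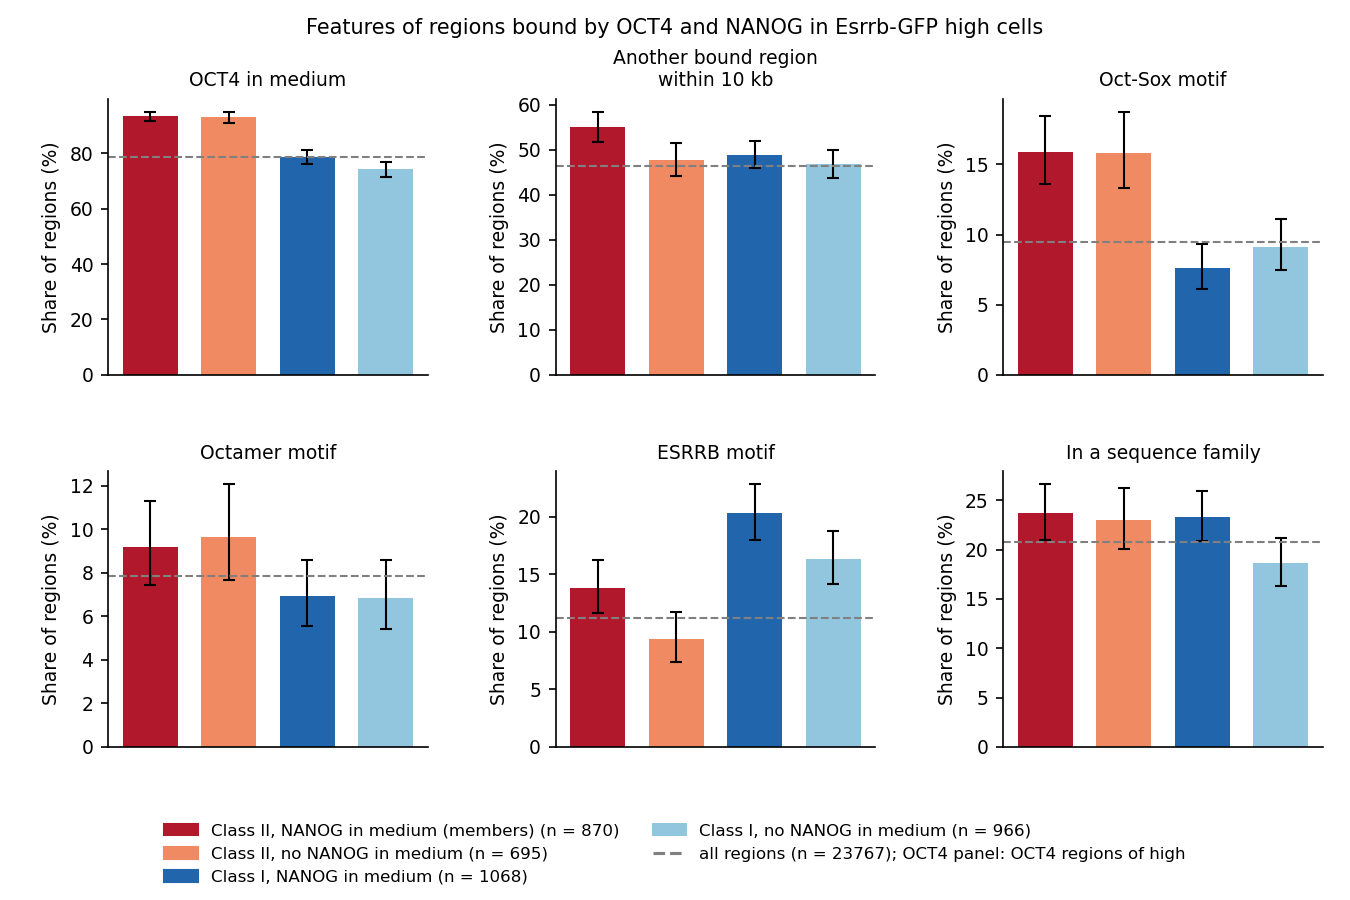
Share of regions (y axes, %) with each of 6 features in 4 groups of regions that both factors occupied in high cells; bars are shares, error bars 95% Wilson intervals, and dashed lines the share over all 23767 regions or, for OCT4, over OCT4 regions of high cells (78.7%). Both Class II groups stand above both Class I groups for OCT4 in medium (93.4% and 93.2%) and the Oct-Sox motif (15.9% and 15.8%). The OCT4 contrast is not independent of the selection, since the classes were defined by OCT4 in negative cells.

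Members stood in company more often than the comparison groups. Another bound region of any list lay within 10 kb of 479 members (55.1%, 51.7 to 58.3%), compared with 47.8% of Class II regions without NANOG in medium (odds ratio 1.34, 1.10 to 1.64), 48.9% of Class I regions with NANOG in medium (1.28, 1.07 to 1.53) and 46.3% of all regions. The first difference held outside sequence families (1.33, 1.06 to 1.67), whereas the second did not (1.18, 0.958 to 1.44). Regions with OCT4 but no NANOG in high cells, the most numerous kind (8774 of 23767), lay beside 247 members (28.4%), with an odds ratio of 1.33 (1.05 to 1.67) over Class II regions without NANOG in medium and 1.19 (0.972 to 1.46) over Class I regions with NANOG in medium. The 5750 regions with NANOG alone called in high cells had one or more beside 173 members, the 5568 with neither factor called there beside 169, and those of both factors beside 135 (15.5%). The order of these counts followed the numbers of regions of the first 3 kinds.

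Another member lay within 10 kb of 49 members (5.63%, 4.29 to 7.37%) and within 25 kb of 76 (8.74%). Within their own group, the same held at 10 kb for 3.45% (2.33 to 5.09%) of Class II regions without NANOG in medium and 5.62% of Class I regions with NANOG in medium, and at 25 kb for 6.33% and 9.18%, so the members' shares lay within the range of these groups or close to it. Joined at 25 kb they formed 831 groups, of which 794 were single regions, 35 pairs and 2 triples. The triples lay at *Phc1* and *Jarid2*, which encode subunits of the Polycomb repressive complexes PRC1 and PRC2.

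The members were 40 to 1180 bp wide, with a median of 180 bp (interquartile range 120 to 260 bp), and covered 185620 bp. Class II regions without NANOG in medium had a median of 160 bp and Class I regions with NANOG in medium one of 180 bp. The GC content of the central 200 bp had a median of 47.0% in both Class II groups and 46.5% in the Class I group. All autosomes and chromosome X held members, between 2.86 and 4.52% of the regions of each, and 0 of the 3 regions on chromosome Y was a member. Widths stem from peaks merged over all libraries, so a region called in several may be wider for that reason.

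By the GENCODE annotation, 535 members (61.5%) were intergenic, 314 (36.1%) intronic, 11 in a UTR, 5 in coding and 5 in non-coding exons. The intronic share was slightly below that of Class II regions without NANOG in medium (41.0%, odds ratio 0.812, 0.662 to 0.997). A transcription start site lay within 1 kb of 57 members (6.55%), with odds ratios of 1.15 (0.756 to 1.74) and 1.02 (0.706 to 1.46), so members were no more promoter-proximal than either group at this precision. The median distance to a start site was 19645.5 bp, against 24003 bp and 16400 bp.

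Within 20 kb, the distance the study used for the closest gene, members lay near 676 of 22380 protein-coding genes (3.02%), or 6.51% of the 10384 protein-coding genes with any bound region that close. Here every gene in reach was counted, not the closest alone. In all, 606 members (69.7%) had a gene of any type in reach. Single members served 630 of these protein-coding genes, 43 had 2 and 3 had 3. Of the 921 genes of all types, 65 also had a Class II region without NANOG in medium, and 111 a Class I region with NANOG in medium. Among all 37310 annotated genes, 700 and 1234 had such a region, and 14923 had any bound region. Whether the overlap exceeds these shares was not tested. The counts for gene lists below are descriptions, since long lists of regions reach many genes and most listed genes had some bound region.

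Of the 3 core factors, *Pou5f1* and *Sox2* had 2 members each within 20 kb, and *Nanog* had none. At *Pou5f1*, which encodes OCT4, the members were centred 1960 bp (chr17:35640952-35641091) and 920 bp (chr17:35641692-35642431) upstream of the start site. Both had OCT4 in all 3 fractions, and NANOG in all but the negative one. Only a 60-bp region between them, with OCT4 alone called in high and medium cells, also had a call in high cells within 20 kb of the gene. At *Sox2*, which encodes the partner of OCT4 on the composite element, one member lay 3625 bp upstream (chr3:34545172-34545431) and the other 18655 bp downstream (chr3:34567352-34567811). Between them lay the Class II region without NANOG in medium whose sequence is given above, 4065 bp downstream of the start site, and both members had 4 mismatches at their best Oct-Sox match, against 1 there.

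Of 25 annotated naive pluripotency genes, 7 (28.0%) had a member within reach, 6 had a Class II region without NANOG in medium and 5 a Class I region with NANOG in medium. All 25 had some bound region. At *Esrrb*, the reporter gene, the member lay in an intron 137895 bp from the start site (chr12:87839812-87840111), among 10 regions of which 3 were Class I with NANOG in medium. The member of *Klf2*, a Kruppel-like factor of the naive network, lay 2770 bp upstream, and that of *Tbx3*, a T-box factor, in an intron at 9344 bp. *Sall4*, a zinc finger factor, had an intronic member at 3221 bp, and *Mybl2*, a cell cycle factor, one at 7439 bp. *Rif1*, which acts in replication timing, had a member 535 bp upstream and a Class II region without NANOG in medium. *Jarid2* had one 771 bp upstream and an intronic one at 22459 bp.

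Of 32 signalling genes, 8 (25.0%) had a member, against 5 and 6 for the comparison groups. In the Nodal pathway, *Nodal*, a TGF-beta family ligand, had one 1838 bp upstream, and its secreted inhibitors *Lefty2* and *Lefty1* had one 4277 bp and one 10051 bp upstream. None of these 3 genes had a Class II region without NANOG in medium or a Class I region with NANOG in medium within 20 kb. Of all 22380 protein-coding genes, only 502 and 903 had one, so absence at 3 genes does not set them apart. *Smad7*, an inhibitory SMAD, also had 1 upstream member, and *Tgif1*, a homeobox repressor of TGF-beta targets, had 3, at 11856 bp and 18716 bp upstream and 25234 bp from the start site downstream. At *Tgif1*, 2 Class I regions with NANOG in medium lay beside them.

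The LIF receptor gene *Lifr* had a member 13737 bp upstream, with both an exact octamer and an Oct-Sox match. *Etv5*, an ETS factor downstream of FGF signalling, had an intronic member with an ESRRB motif at 36960 bp, beside 3 Class I regions with NANOG in medium. *Tcf7l1*, a Wnt pathway repressor, had 1 intronic member at 35256 bp. The FGF receptor gene *Fgfr2* had 2, but its annotated body spans 3009069 bp and holds 45 bound regions. By this annotation alone the 2 members lie up to 2919251 bp from its start site, so whether they belong to *Fgfr2* cannot be told.

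Of 16 annotated formative and primed genes, 3 (18.8%) had a member, the same number as for either comparison group. Among them, *Dnmt3b*, a de novo DNA methyltransferase, had one 6164 bp upstream, and *Lef1*, an HMG-box factor of the Wnt pathway, had one in an intron at 33983 bp. Of 19 chromatin genes, 6 (31.6%) had a member and 7 a Class I region with NANOG in medium, but 1 had a Class II region without NANOG in medium. They were *Dnmt3b*, the dioxygenase gene *Tet3*, the PRC2 subunit gene *Eed*, the histone demethylase gene *Kdm4c*, the corepressor gene *Trim28* and the remodeller gene *Smarcad1*. The members lay 9629 bp upstream of *Trim28*, 17859 bp upstream of *Smarcad1*, and 16729 bp upstream of *Eed* with an ESRRB motif. Of 18 annotated lineage genes, 1 had a member (5.56%), 2 had a Class II region without NANOG in medium and 4 a Class I region with NANOG in medium. The share with a member was 3.02% over all protein-coding genes and 6.51% over those with any bound region, which 13 of the 18 had. The lineage gene was *Pax3*, a factor of neural crest and muscle, with its member in an intron at 77037 bp.

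The genes with most members were *Phc1*, *Tgif1* and *Ctnna3*, with 3 each. At *Phc1* the members were centred 103 bp, 593 bp and 1883 bp upstream of the start site, spanning 2200 bp in all (chr6:122290512-122292711). They were 340, 520 and 500 bp wide, well above the median member, and the first had an Oct-Sox match with 2 mismatches and the second an exact octamer and a KLF motif. No other region with a call of either factor in high cells lay within 20 kb. The 3 members of *Ctnna3*, an alpha-catenin gene, were each 100 bp wide and lay in introns across a body of 1573570 bp. *Reep3*, *Nlrp12*, *Etl4* and the neighbours of *Pou5f1*, *Cchcr1* and *Tcf19*, which share its members, had 2 each. *Serpini1*, which encodes a neuronal serpin, had a pair of members within 1420 bp.

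**Figure D5:**
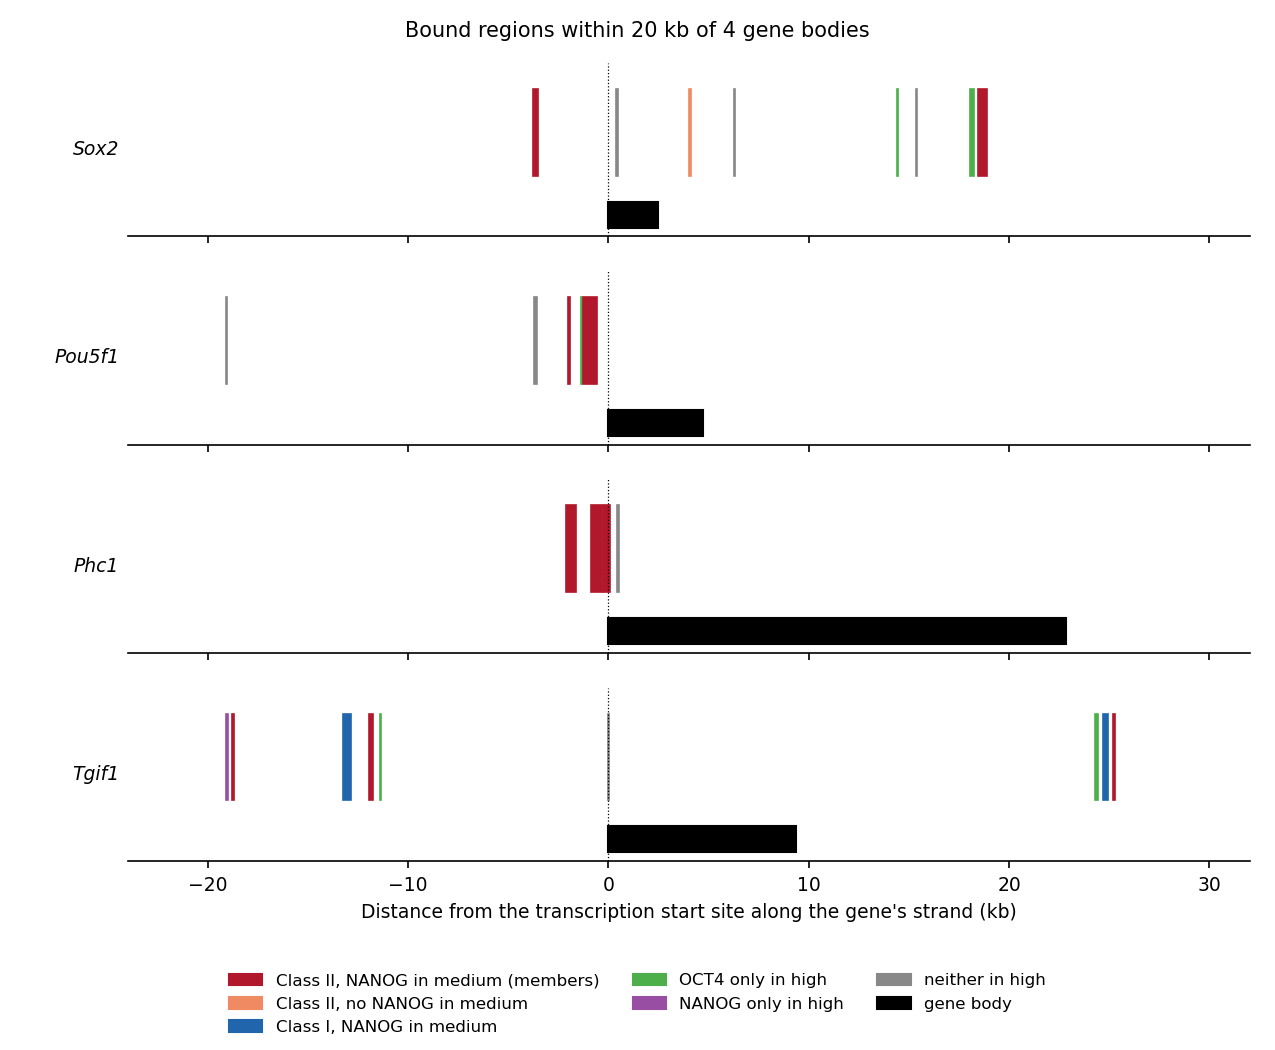
Bound regions within 20 kb of *Sox2*, *Pou5f1*, *Phc1* and *Tgif1* by distance of each region from the transcription start site along the gene's strand (x axis, kb; the vertical scale carries no value); coloured boxes are regions by class, drawn with an outline so that the narrowest stay visible, and black bars are gene bodies. The 3 members at *Phc1* lie within 2200 bp, next to the start site, and those at *Sox2* lie on either side of the gene body.

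Every one of the 45 members near the genes that the naming rule took was bound by OCT4 in medium cells, and 5 of the 45 belonged to a sequence family. In the whole set 93.4% of members had OCT4 in medium and 23.7% belonged to a family. The named members were chosen by gene, and their shares were not compared further with these.

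The joint pattern of the 2 selected traits was examined for the motifs after the comparisons above. Between regions with and without NANOG in medium, the ESRRB odds ratio was 1.55 in Class II and 1.30 (1.04 to 1.64) in Class I, with a ratio of the odds ratios of 1.19 (0.804 to 1.76). For Oct-Sox the values were 1.00 and 0.819 (0.597 to 1.12). For the forkhead motif they were 1.47 and 0.653 (0.421 to 1.01), with a ratio of 2.25 (1.17 to 4.35), and for the homeobox core 0.757 and 1.18 (0.906 to 1.54), with a ratio of 0.641 (0.421 to 0.977). The forkhead and homeobox motifs were chosen for this after their values were seen.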

How the data were processed

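OCT4 and NANOG ChIP-Seq of 3 sorted E-GFPd1 populations was analysed, 1 library per factor and population. The deposited files are lists of intervals with chromosome, start and end on mm9 (unit: presence or absence of a region, with no score). Per the study's methods and the processing notes, the authors aligned reads with Bowtie, used SISSRs within GeneProf to find peaks, joined those that overlapped between libraries, and counted a region as lost where under 50% of its maximum signal, scaled for sequencing depth, was left. Depth per library is therefore unknown here.

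Members were found by exact match of intervals. The members and gene lists were chosen with earlier results of these data known. Comparison groups were Class II without NANOG in medium and Class I with NANOG in medium. Odds ratios carry 95% intervals; no p-value was computed. Motifs were scanned in 200 bp around the centre. Named genes are those of 6 lists with a member within 20 kb, the 10 protein-coding genes with most members, and the 5 largest groups of members joined at 25 kb. Sequence families came from BLAST+ 2.17.0 (dust filter), and this step, like leaving the families out, was chosen after seeing the data. Sequences are from the NCBIM37 genome and genes from GENCODE. Alternatives were other windows, mismatch limits, distances, strata of width and GC content, autosomes and wide regions. Python 3.11.15, numpy 2.4.6, scipy 1.17.1, pysam 0.24.0, samtools 1.23.1 and matplotlib 3.10.9 were used. Functions were tested on simulated data (5000 regions), and 34 of 34 known answers were recovered. A few items that the naming rules took are not reported here.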

Additional observations from a re-analysis of the deposited data

How the results depend on the processing

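No paired analysis was possible because factor and fraction together define 1 library each. Of 126 alternatives for 14 odds ratios, those not listed here kept the direction and their side of 1. Leaving out sequence families, an alternative added after seeing the data, gave 1.04 for the ESRRB motif over Class II without NANOG in medium, 1.18 for clustering over Class I with NANOG in medium, and for the octamer 1.08 over Class II and 1.50 (1.06 to 2.12) over Class I. The octamer over Class I was 1.82 within 50 bp, 1.41 within 250 bp, 1.64 in the deposited interval and 1.73 with 1 mismatch, all with intervals above 1, and over Class II 1.04 in the deposited interval and 1.20 with 1 mismatch. Oct-Sox over Class II, at 1.00 in the report, was 0.985 in wide regions, 0.954 within 50 bp, 0.945 within 250 bp and 0.964 in the deposited interval. An exact ESRRB motif gave 0.607 (0.318 to 1.16) over Class I and 3.77 (1.08 to 13.2) over Class II. KLF within 250 bp was 0.905 over Class II and 0.682 (0.474 to 0.980) over Class I. OCT4 in medium over Class II was 0.995 stratified by width. Promoter proximity was 0.958 (Class II) and 0.901 (Class I) within 5 kb, and over Class I 0.988 stratified by GC content and 0.991 with 1 region per 500 bp cluster. Members lay near 401 protein-coding genes within 5 kb and 1167 within 50 kb. Beyond the wider or narrower distances and windows, the cause of these changes was not tested. Depth limits are unknown, since the lists hold no read counts.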
